A study of Mus musculus with 9 samples.

Results

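The unfolded protein and ATF4 stress response was followed through 32 genes, of 19938 measured, in 3 lines of mouse mammary carcinoma cells. The members were chosen by name for their known roles, with earlier results of these data known. They comprise 14 chaperones and folding enzymes of the endoplasmic reticulum (ER), 6 genes of ER degradation, the translocon subunit Sec61b, 3 stress sensors with the transcription factor Xbp1, and 7 genes of the ATF4-CHOP arm. All 32 were measured, each through the brightest probe set that carries only that gene's symbol. No filter on dim genes was applied.

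4T1 is a mouse mammary carcinoma line, and the control cells were untreated. MR20 cells survived methotrexate, a folate antagonist, at 20 µg/ml in the labels, for up to 2 weeks, and then recovered without the drug for 2 weeks. The paper writes this dose in ng/ml instead, and the conflict could not be settled. DR500 cells survived doxorubicin, an anthracycline, raised stepwise to 500 ng/ml, over up to 2 weeks in the labels. The methods of the paper describe a longer schedule of rising doses for DR500, and a drug-free recovery for DR500 too. Some label fields of DR500 name methotrexate, whereas its treatment protocol names doxorubicin, and the latter is used here. Both lines are populations of cells that survived a selection and not genetic models. Each line was hybridized to 3 whole-transcript arrays. Titles of the 4T1 and MR20 arrays and the paper's legends call them biological replicates, whereas the protocols name triplicates or triplicate wells of each line, so the p-values may cover only well-to-well variation of technical origin. The control 4T1 cells were grown in parallel with MR20. The extraction protocol of DR500 names a 4T1 control with another label (WTR-), whose arrays were not analysed here, so a difference between the 4T1 cultures cannot be told apart from that between DR500 and 4T1. Whether the DR500 arrays form a batch of their own cannot be told apart from the line, and both selected lines share the same 3 control arrays.

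The unfolded protein response starts from 3 sensors in the ER membrane. IRE1, encoded by Ern1, splices the Xbp1 transcript, ATF6 is cleaved into a transcription factor, and PERK, encoded by Eif2ak3, phosphorylates the translation factor eIF2-alpha. XBP1 and ATF6 raise chaperones and degradation genes, whereas PERK lowers translation in general and favours that of Atf4, whose protein turns on amino acid synthesis genes and, through CHOP (Ddit3), pro-apoptotic genes. Atf4 is also translated when other kinases phosphorylate eIF2-alpha, for instance on amino acid shortage, which is why this arm is also called the integrated stress response. The arrays measured total transcript. They show neither the spliced form of Xbp1, nor cleaved ATF6, nor ATF4 protein.

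Both branches are known to act through short promoter elements, and these were looked for in the members' promoters. Windows from 250 bases before to 50 after the transcription start were taken from RefSeq (GRCm38.p6) for 28 of the 32 members, and both strands were searched. Hyou1, Manf, Atf6 and Derl1 were not in the table used. The ER stress element, read as CCAAT, 9 bases and CCACG, was found in 9 of 28 members and in 0.137% of all 27025 genes with a window. Its carriers were Hspa5, Hsp90b1, Dnajc3, Creld2, Pdia6, Calr, Canx, Syvn1 and Derl3, which are 7 of the 12 chaperone genes and 2 of the 5 degradation genes with a window. The unfolded protein response element TGACGTG was found in Hspa5 alone among the members and in 2.22% of all genes. The C/EBP-ATF element TGATGNAA was found in 5 members, Asns, Chac1, Atf3, Trib3 and Herpud1, and in 4.51% of all genes. The cyclic AMP element TGACGTCA was found in Ppp1r15a alone, against 2.03% of all genes. TGACGTG and TGACGTCA share their first letters but do not overlap in any member. A match is a description of these letters and not a test of binding.

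The first set of stretches, 5′ to 3′ along the gene's strand, shows the ER stress element in 4 chaperone genes whose values are described in the following paragraphs. Capitals mark the matched letters, which read CGTGG and ATTGG where the element lies on the opposite strand. In Hspa5 the first run of capitals is the unfolded protein response element. They lie at chr2:34771893-34772083, chr14:118937787-118937885, chr15:88819480-88819578 and chr12:17266451-17266549, all on the plus strand, upstream of the start.
Hspa5: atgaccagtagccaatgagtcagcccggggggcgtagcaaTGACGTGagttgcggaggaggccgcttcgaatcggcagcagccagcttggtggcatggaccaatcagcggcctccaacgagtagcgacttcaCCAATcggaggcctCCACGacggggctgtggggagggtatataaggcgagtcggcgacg
Dnajc3: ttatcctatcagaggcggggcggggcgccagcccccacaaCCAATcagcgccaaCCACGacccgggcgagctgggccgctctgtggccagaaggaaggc
Creld2: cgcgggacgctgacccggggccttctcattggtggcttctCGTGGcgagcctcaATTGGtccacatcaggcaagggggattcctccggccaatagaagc
Pdia6: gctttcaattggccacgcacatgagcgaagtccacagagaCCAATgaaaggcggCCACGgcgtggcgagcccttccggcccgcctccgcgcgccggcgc

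The second set shows the C/EBP-ATF element in 3 genes of the ATF4-CHOP arm and in Herpud1, again with the matched letters in capitals. TTGCATCA is the element read from the opposite strand. They lie at chr6:7693210-7693272 and chr1:191183396-191183483 on the minus strand and at chr2:119351009-119351096 and chr8:94386277-94386364 on the plus strand. The match in Trib3 lies after the transcription start and is not shown.
Asns: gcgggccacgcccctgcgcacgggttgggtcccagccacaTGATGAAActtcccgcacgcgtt
Atf3: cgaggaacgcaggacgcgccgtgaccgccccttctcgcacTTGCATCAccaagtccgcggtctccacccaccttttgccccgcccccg
Chac1: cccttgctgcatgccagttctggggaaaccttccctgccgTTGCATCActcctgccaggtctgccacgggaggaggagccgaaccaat
Herpud1: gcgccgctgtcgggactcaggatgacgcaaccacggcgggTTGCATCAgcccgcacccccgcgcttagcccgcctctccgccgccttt

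In MR20 compared with 4T1, 11 members rose and 14 fell at an adjusted p under 0.05 (limma with Benjamini-Hochberg adjustment over all genes), and 7 did not pass. Over all genes, 15.4% rose and 17.1% fell. None of the 32 passed 2-fold, which 2.49% of all genes did. The arrays of MR20 and 4T1 did not overlap for 29 members, against 45.1% of all genes. In DR500 compared with 4T1, 15 members rose, 6 fell and 11 did not pass, against a background of 20.2% and 21.3%. None passed 2-fold, against 5.56% of all genes, and 27 did not overlap, against 50.1%. In DR500 compared with MR20, 14 members rose, 5 fell and 13 did not pass, with 21.2% and 20.6% of all genes called. Dnajc3 alone passed 2-fold, against 6.1% of genes, and 23 members did not overlap, against 49.8%. These background shares include dim genes, whereas no member had a mean below the median probe set in every line. With a filter on dim genes 11288 genes remained, and larger shares of them were called. Of these, 3241 rose and 3581 fell in MR20 against 4T1, and 3544 and 4274 in DR500 against 4T1. In DR500 against MR20 it was 3649 and 4143. In these bulk cultures, a change in the share of some cells and a change in RNA per cell cannot be told apart.

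The counts of rises and falls differed between the 2 sides of the response. Of the 20 chaperone and degradation genes, 10 rose and 5 fell in MR20 and 11 rose and 1 fell in DR500, relative to 4T1, with median log2 differences of 0.19 and 0.28. The degradation genes alone were even in MR20, where 2 of 6 rose and 2 fell with a median of -0.09, and in DR500 2 rose and 1 fell with a median of 0.14. Of the 7 genes of the ATF4-CHOP arm, 1 rose and 5 fell in MR20 and 1 rose and 4 fell in DR500, with medians of -0.56 and -0.53. The median over all genes was -0.01 in MR20 and 0.07 in DR500. Under a repeated quantile normalization the all-gene median of DR500 moved to 0.12, and the share of rises among called genes went from 48.76% to 61.77% (62.04% with arrays centred on their median). In DR500 compared with MR20 that share went from 50.72% to 60.45% and 56.33%, and in MR20 compared with 4T1 it was 47.34%, 50.72% and 54.26%. Relative to the all-gene median, the chaperone and degradation genes lay 0.20 higher in MR20 and 0.21 higher in DR500. After the repeated normalization these values were 0.21 in MR20 and 0.19 in DR500. The ATF4-CHOP arm lay 0.55 lower in MR20, or 0.54 after the repeated normalization, and 0.60 lower in DR500 under both.

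**Figure D1:**
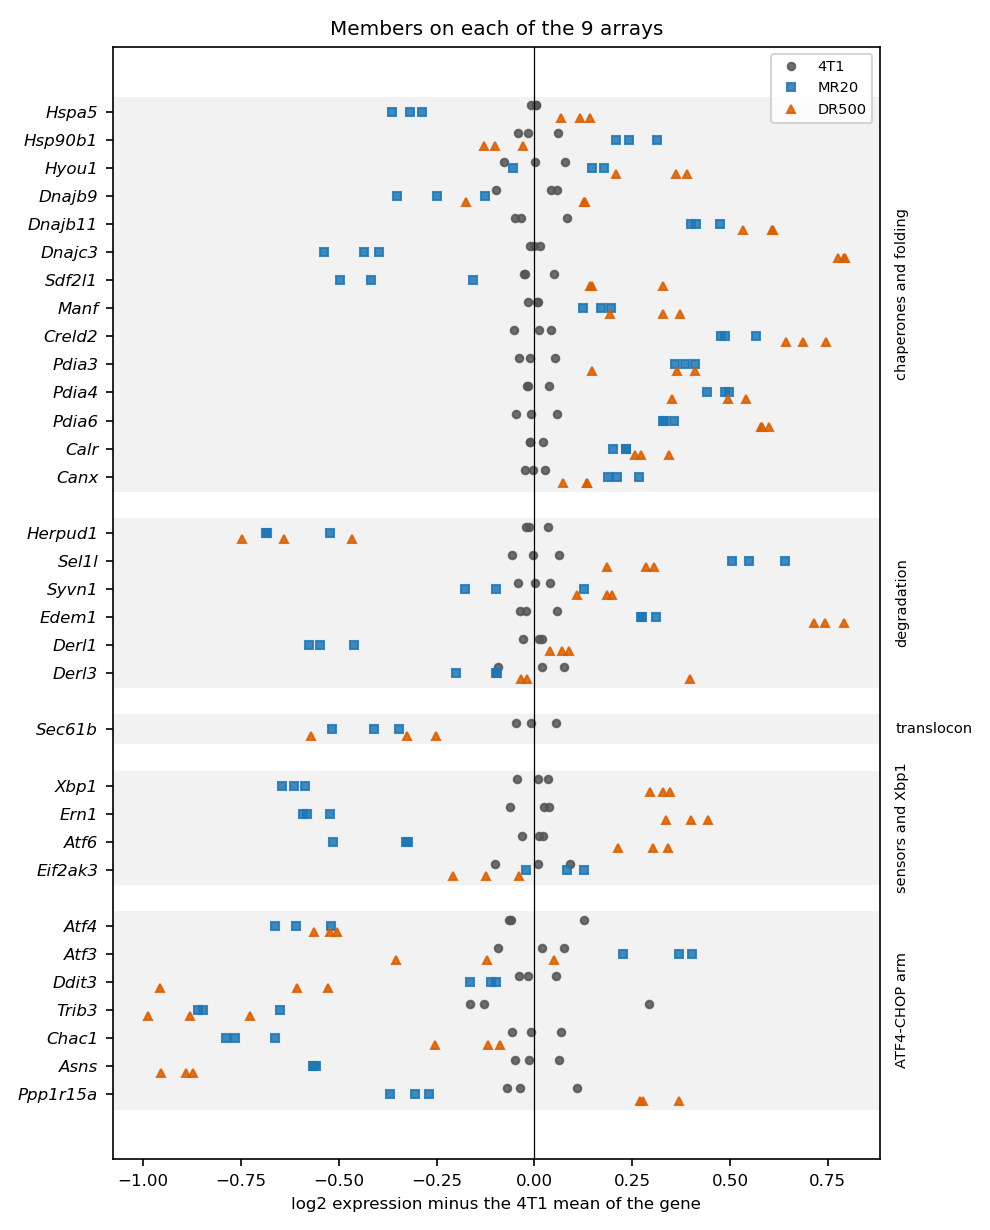
Log2 expression of each of the 32 members on each of the 9 arrays, minus that gene's mean over the 4T1 arrays, with members grouped by role. Circles are 4T1, squares MR20 and triangles DR500; Xbp1, Ern1 and Atf6 lie below 0 on the MR20 arrays and above 0 on the DR500 arrays, while Atf4, Trib3, Asns and Herpud1 lie below 0 on the arrays of both selected lines.

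The sensors Ern1 and Atf6, together with Xbp1, had opposite directions in the selected lines. All 3 fell in MR20 and rose in DR500, whereas Eif2ak3 passed in neither. Xbp1, the transcription factor whose transcript IRE1 splices, measured 11.58, 11.56 and 11.50 (log2) on the 4T1 arrays, 10.93, 10.90 and 10.96 on the MR20 arrays and 11.90, 11.88 and 11.84 on the DR500 arrays. The lines do not overlap, and 4T1 lies between the selected lines. Xbp1 fell by 0.62 in MR20 (SE 0.05, adjusted p = 1.17e-05) and rose by 0.32 in DR500 (SE 0.05, adjusted p = 0.000509), which left DR500 1.92-fold above MR20 (adjusted p = 2.11e-07).

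Ern1, the kinase and RNase IRE1, measured 9.97, 9.87 and 9.96 in 4T1, 9.34, 9.35 and 9.41 in MR20 and 10.34, 10.27 and 10.38 in DR500. It followed the order of Xbp1, with a log2 difference from 4T1 of -0.57 in MR20 and 0.39 in DR500 (adjusted p = 3.7e-05 and 0.000235). DR500 exceeded MR20 1.95-fold. Atf6 measured 9.98, 10.04 and 10.03 in 4T1, 9.69, 9.50 and 9.69 in MR20 and 10.36, 10.23 and 10.32 in DR500, again without overlap. Its differences were -0.39 and 0.29 (adjusted p = 0.00121 and 0.00591). Eif2ak3, which encodes PERK, ranged from 7.85 to 8.19 over the 9 arrays, and its differences of 0.06 in MR20 (95% confidence interval -0.10 to 0.22) and -0.12 in DR500 (-0.29 to 0.04) did not pass.

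**Figure D2:**
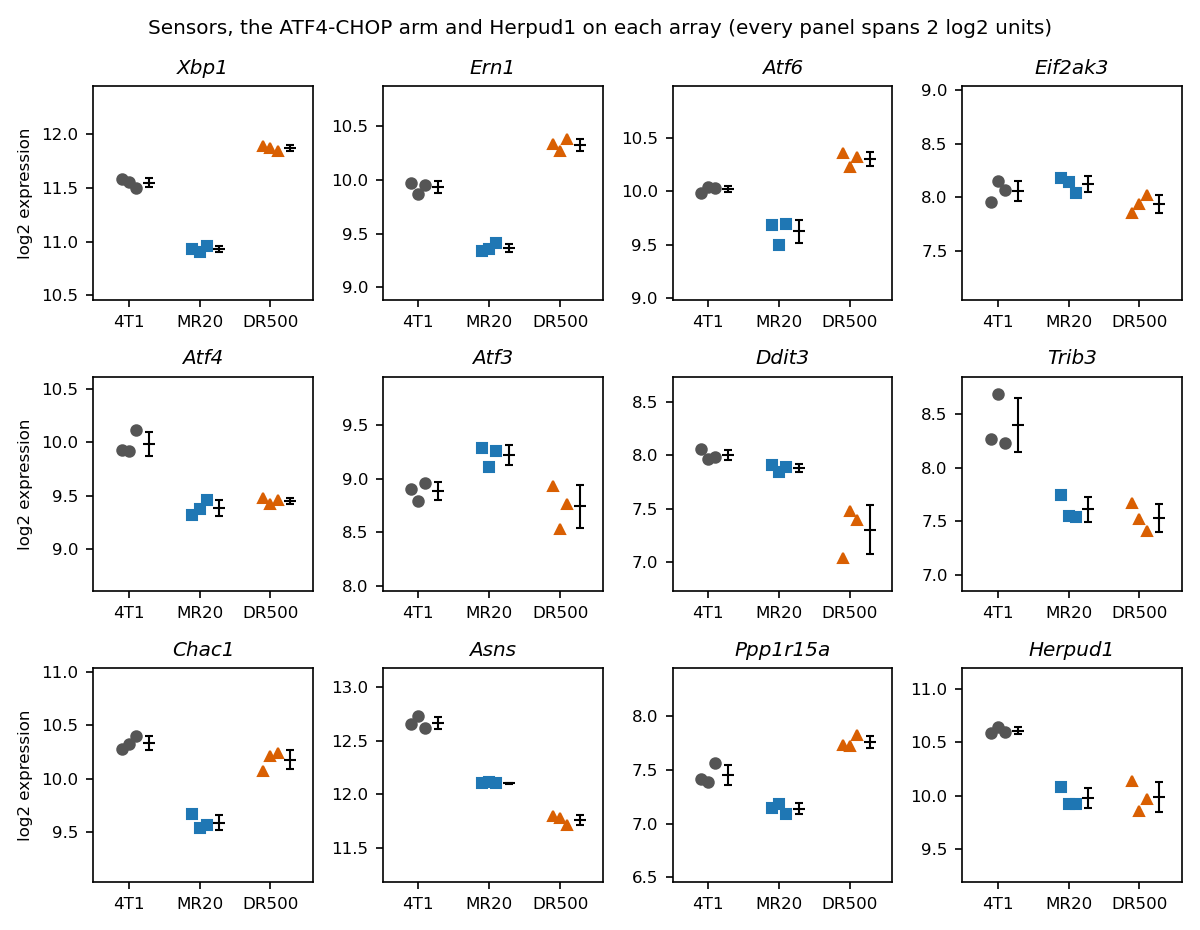
Log2 expression on each array (vertical axis, every panel spanning 2 log2 units) for the sensors, Xbp1, the ATF4-CHOP arm and Herpud1. Points are arrays and the black bars are the mean and SD over the 3 arrays of a line; Xbp1, Ern1 and Atf6 are lowest in MR20 and highest in DR500, and Asns is lower in MR20 than in 4T1 and lowest in DR500.

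Among the chaperones, 8 of 14 rose and 3 fell in MR20, and 9 rose and none fell in DR500. The medians were 0.22 and 0.30. The 3 disulfide isomerases among the members, which form and shuffle disulfide bonds in new proteins, rose in both lines: Pdia3 by 0.38 in MR20 and 0.31 in DR500, Pdia4 by 0.47 (SE 0.06) and 0.46, and Pdia6 by 0.34 and 0.59. Relatives outside the members were mixed. Pdia5 fell by 0.29 in MR20 and did not pass in DR500 (0.14, adjusted p = 0.146), and P4hb passed in neither (-0.08 and 0.03). Txndc5 rose in both lines, by 0.20 and 0.60. A second, dim probe set of Pdia4, with a mean of 4.62, passed in neither line, and with the mean of both probe sets Pdia4 did not pass in DR500 (0.09, adjusted p = 0.28). The lectin chaperone Calr rose by 0.22 and 0.29. Its membrane-bound partner Canx rose by 0.22 in MR20, and its difference of 0.11 in DR500 did not pass.

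Creld2, an ER-resident protein induced by stress, measured 10.27, 10.33 and 10.36 in 4T1, 10.89, 10.80 and 10.80 in MR20 and 10.96, 11.01 and 11.06 in DR500. All arrays of both selected lines lie above those of 4T1. Its differences were 0.51 in MR20 and 0.69 in DR500 (adjusted p = 7.55e-05 and 4.46e-06). Dnajb11, a co-chaperone of BiP, measured 9.01, 9.03 and 9.14 in 4T1, 9.47, 9.54 and 9.46 in MR20 and 9.59, 9.67 and 9.67 in DR500. It rose by 0.43 and 0.58 (adjusted p = 0.000267 and 1.83e-05). Hyou1, the nucleotide exchange factor of BiP, and Manf, a secreted factor that binds BiP, rose by 0.32 and 0.30 in DR500 (adjusted p = 0.00851 and 0.00228). In MR20 their differences were 0.09 and 0.16 and did not pass (adjusted p = 0.499 and 0.0647).

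Another group of chaperones was lower in MR20 and not in DR500. Hspa5 encodes BiP, the major chaperone of the ER, which holds the sensors inactive when folding is not strained. It measured 13.01, 13.00 and 13.01 in 4T1, 12.69, 12.64 and 12.72 in MR20 and 13.15, 13.07 and 13.12 in DR500. It fell by 0.32 in MR20 (SE 0.05, adjusted p = 0.000737). In DR500 its arrays lie above those of 4T1 without overlap, but the difference of 0.11 did not pass (adjusted p = 0.123). It passed there with a repeated quantile normalization (0.22, adjusted p = 0.00702), with a filter on dim genes and with a robust, trended variance step.

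Dnajc3, which encodes an ER co-chaperone and inhibitor of PERK, had the largest difference between the selected lines among the members. It measured 10.18, 10.21 and 10.19 in 4T1, 9.80, 9.66 and 9.76 in MR20 and 10.97, 10.99 and 10.99 in DR500. The lines are clearly apart. Dnajc3 fell by 0.46 in MR20 (adjusted p = 0.000119) and rose by 0.79 in DR500 (adjusted p = 1.39e-06), so that DR500 exceeded MR20 by 1.24 (SE 0.06, 2.37-fold, adjusted p = 3.76e-08). Both probe sets of this gene hold identical values and count as 1. Sdf2l1, a partner of BiP and Dnajb11, fell by 0.36 in MR20 (adjusted p = 0.0116), whereas its difference of 0.21 in DR500 did not pass (adjusted p = 0.0987).

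Dnajb9, a co-chaperone that restrains IRE1, had differences of -0.24 in MR20 and 0.03 in DR500, neither of which passed. Hsp90b1, which encodes the ER chaperone GRP94, measured 12.35, 12.28 and 12.25 in 4T1, 12.54, 12.50 and 12.61 in MR20 and 12.19, 12.17 and 12.26 in DR500. It was the only chaperone of the 14 that was lower in DR500 than in MR20 at an adjusted p under 0.05 (log2 difference -0.34, adjusted p = 0.000765). Its rise in MR20 was 0.25 (adjusted p = 0.00641), and the arrays of DR500 and 4T1 overlap.

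**Figure D3:**
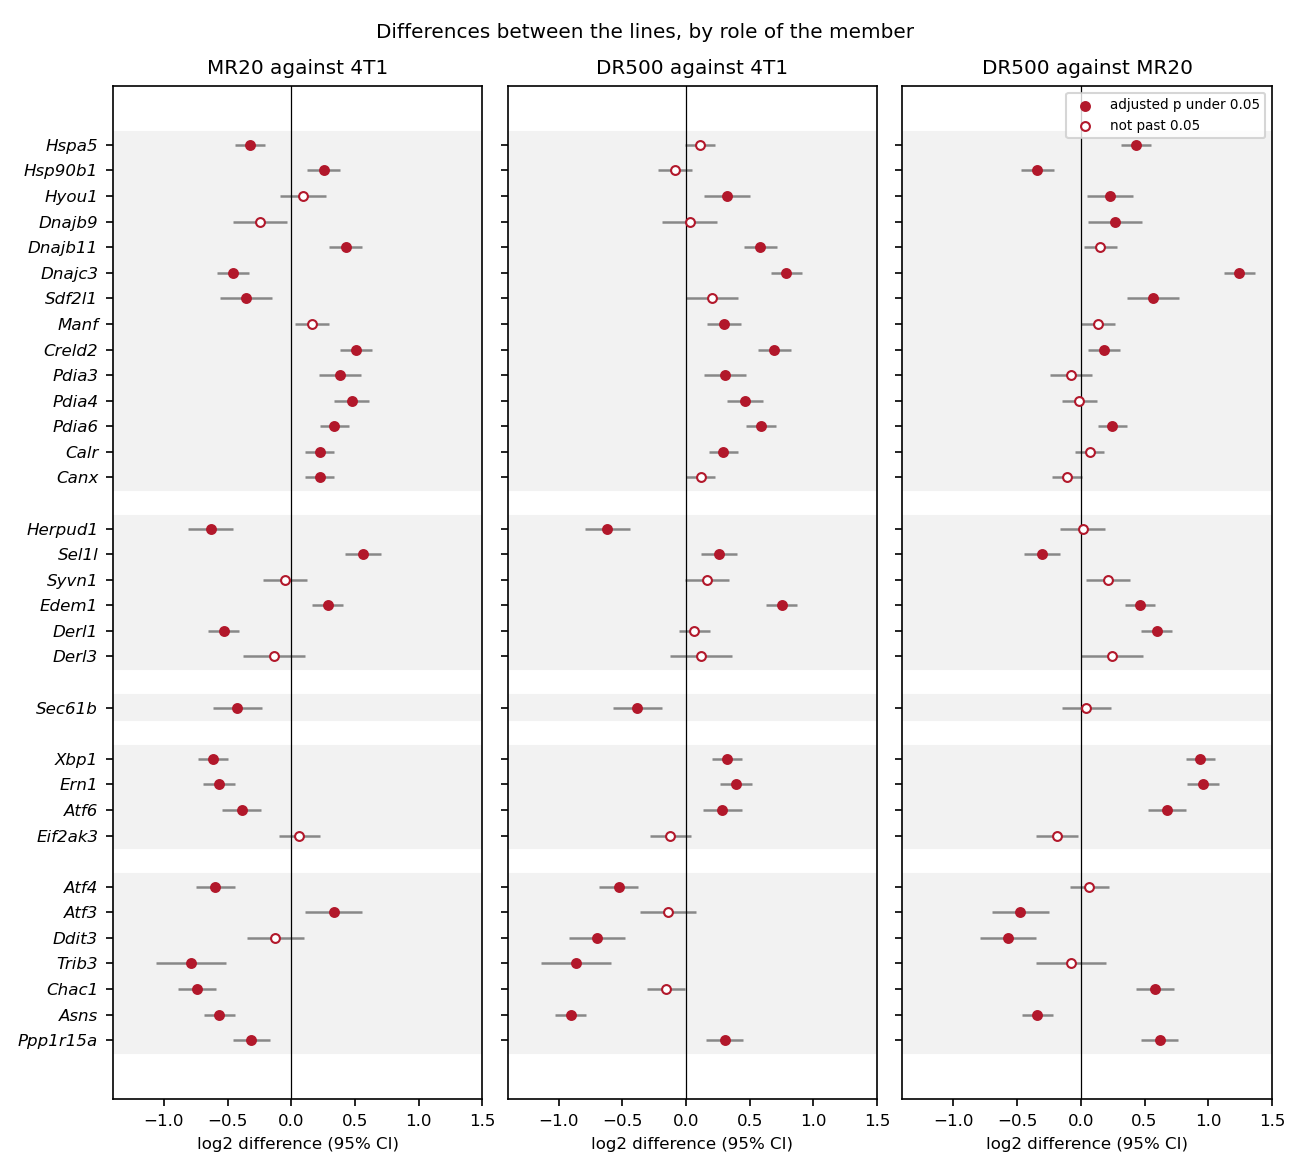
Log2 difference of each member with its 95% confidence interval (horizontal axis) in 3 comparisons of lines, with members in the role order chaperones, degradation, Sec61b, sensors with Xbp1, and ATF4-CHOP arm. Filled points have an adjusted p under 0.05; Dnajc3, at 1.24 between DR500 and MR20, lies farthest from 0, and no member passes 2-fold (1 log2 unit) against 4T1.

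The degradation genes were mixed. Edem1, a lectin that hands misfolded glycoproteins to degradation, measured 10.67, 10.59 and 10.58 in 4T1, 10.89, 10.92 and 10.89 in MR20 and 11.36, 11.33 and 11.41 in DR500. It rose by 0.29 in MR20 and by 0.75 in DR500 (adjusted p = 0.00206 and 1.7e-06). Sel1l, the adaptor of the ubiquitin ligase Syvn1, was highest in MR20. It measured 9.66, 9.54 and 9.60 in 4T1, 10.24, 10.11 and 10.15 in MR20 and 9.89, 9.79 and 9.91 in DR500, which gave rises of 0.56 and 0.26 (adjusted p = 7.42e-05 and 0.00705). The ligase Syvn1 itself passed in neither line (-0.05 and 0.16).

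Herpud1, a scaffold of the same ligase complex, was the only one of the 20 chaperone and degradation genes that fell in DR500. It measured 10.59, 10.64 and 10.59 in 4T1, 10.08, 9.92 and 9.92 in MR20 and 10.14, 9.86 and 9.97 in DR500. The arrays of the selected lines overlap each other and lie below those of 4T1. Herpud1 fell by 0.63 in MR20 and 0.62 in DR500 (adjusted p = 0.000156 and 0.000102). Its promoter holds the C/EBP-ATF element shown earlier, as do those of 4 genes of the ATF4-CHOP arm and 4.51% of all genes. Of those 4, Atf3 fell in neither line and Chac1 did not pass in DR500. Whether the element had a part in the fall of Herpud1 was not tested.

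The derlins are membrane proteins of the degradation channel. Derl1 measured 11.49, 11.48 and 11.44 in 4T1, 11.01, 10.89 and 10.92 in MR20 and 11.56, 11.51 and 11.54 in DR500, a fall of 0.53 in MR20 (adjusted p = 4.14e-05) and a difference of 0.07 in DR500 (adjusted p = 0.364). Derl3 ranged from 6.08 to 6.68, close to the median probe set of the arrays, and passed in no comparison. Its difference of 0.11 in DR500 was -0.03 without DR500 replicate 1, which held the highest value. Sec61b, a subunit of the channel through which new proteins enter the ER, fell by 0.42 in MR20 and 0.38 in DR500 (adjusted p = 0.0032 and 0.00441). Each of its 3 probe sets was lower in both lines than in 4T1.

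In the ATF4-CHOP arm, Atf4, Trib3 and Asns fell in both lines. Atf4 measured 9.92, 9.92 and 10.11 in 4T1, 9.32, 9.38 and 9.46 in MR20 and 9.48, 9.42 and 9.46 in DR500. The selected lines overlap each other and not 4T1. Atf4 fell by 0.60 in MR20 (SE 0.07, adjusted p = 8.77e-05) and by 0.53 in DR500 (SE 0.07, adjusted p = 0.000106).

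Asns, which makes asparagine from aspartate and is a classic ATF4 target, measured 12.65, 12.73 and 12.62 in 4T1, 12.10, 12.11 and 12.10 in MR20 and 11.79, 11.78 and 11.71 in DR500. It fell by 0.56 in MR20 and 0.91 in DR500 (adjusted p = 2.88e-05 and 4.54e-07), and DR500 lay below MR20 in turn (log2 difference -0.34, adjusted p = 0.000471). The 3 lines do not overlap. Trib3, a pseudokinase induced by ATF4 and CHOP, measured 8.27, 8.69 and 8.23 in 4T1, 7.75, 7.55 and 7.54 in MR20 and 7.67, 7.52 and 7.41 in DR500. It fell by 0.79 and 0.87 (adjusted p = 0.00063 and 0.000206). Without 4T1 replicate 2, the highest, the differences were -0.64 and -0.72 and still passed.

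The other 4 genes of the arm differed between MR20 and DR500. Ddit3, which encodes the pro-apoptotic factor CHOP, measured 8.06, 7.96 and 7.99 in 4T1, 7.91, 7.84 and 7.89 in MR20 and 7.04, 7.48 and 7.40 in DR500. It fell by 0.70 in DR500 (SE 0.10, adjusted p = 0.000208), or by 0.57 without DR500 replicate 1, and its difference of -0.12 in MR20 did not pass (adjusted p = 0.437). DR500 lay below MR20 for Ddit3 without overlap (log2 difference -0.57, adjusted p = 0.000837). Chac1, an enzyme that degrades glutathione, went the other way. It measured 10.27, 10.32 and 10.40 in 4T1, 9.67, 9.54 and 9.57 in MR20 and 10.08, 10.21 and 10.24 in DR500, a fall of 0.74 in MR20 (adjusted p = 1.79e-05) and a difference of -0.15 in DR500 that did not pass (adjusted p = 0.0935).

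Ppp1r15a, which encodes GADD34, the phosphatase subunit that reverses eIF2-alpha phosphorylation, measured 7.42, 7.39 and 7.56 in 4T1, 7.15, 7.19 and 7.09 in MR20 and 7.73, 7.72 and 7.83 in DR500. It fell by 0.31 in MR20 (adjusted p = 0.00361) and rose by 0.31 in DR500 (adjusted p = 0.00317), the same order of lines as Xbp1. Atf3, a stress-induced repressor, measured 8.90, 8.79 and 8.96 in 4T1, 9.29, 9.11 and 9.25 in MR20 and 8.93, 8.53 and 8.76 in DR500. It was the only gene of the arm that rose in MR20, by 0.33 (SE 0.10, adjusted p = 0.026). The rise lost its call when 4T1 replicate 1, 4T1 replicate 2, MR20 replicate 1 or MR20 replicate 3 was left out (adjusted p 0.0615, 0.1, 0.0894 and 0.0787). In DR500 its difference of -0.14 did not pass.

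Set against each other directly, DR500 exceeded MR20 in 7 of the 14 chaperones, 2 of the 6 degradation genes and 3 of the 4 sensors with Xbp1. It was lower in Hsp90b1, Sel1l, Atf3, Ddit3 and Asns. Chac1 and Ppp1r15a were also higher, by 0.59 and 0.62, and Atf6 by 0.68. Derl1 was 0.59 higher in DR500, Sdf2l1 0.56, Edem1 0.46, Hspa5 0.43 and Pdia6 0.25. The differences of Sel1l and Atf3 were -0.31 and -0.48. Over the 20 chaperone and degradation genes, 9 were higher and 2 lower in DR500, with a median of 0.20, which is 0.13 above the all-gene median. Atf4, Trib3, Herpud1 and Sec61b differed by between -0.08 and 0.07 and did not pass. The confidence intervals of these 4 differences were -0.09 to 0.22, -0.35 to 0.19, -0.16 to 0.19 and -0.15 to 0.23. The median over the ATF4-CHOP arm was -0.08, and 0.0017 with a repeated quantile normalization, beside 0.07 over all genes.

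Some calls between DR500 and MR20 were near the threshold. Creld2 was 0.18 higher in DR500 (adjusted p = 0.0264). It did not pass without MR20 replicate 2 or 3 or without DR500 replicate 2 or 3 (adjusted p 0.0792, 0.0813, 0.0553 and 0.0708). Dnajb9 was 0.27 higher (adjusted p = 0.0443) and Hyou1 0.23 (adjusted p = 0.0432). Dnajb9 did not pass when any 1 of the 4T1 arrays, of MR20 replicates 2 and 3 or of DR500 replicates 2 and 3 was left out (adjusted p up to 0.14), nor with the replicate number as a block (adjusted p = 0.0824). Hyou1 did not pass when any 1 of the 4T1 arrays, of MR20 replicates 2 and 3 or of DR500 replicates 1 and 3 was left out (adjusted p up to 0.156).

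As a summary per array, the median over the genes of a role was taken after subtracting each gene's mean over the 9 arrays. For the chaperones it was -0.16 to -0.14 in 4T1, 0.04 to 0.06 in MR20 and 0.14 to 0.20 in DR500. For the degradation genes it was -0.04 to 0.0007 in 4T1, lower on every MR20 array at -0.15 to -0.09, and 0.03 to 0.20 in DR500. For the sensors with Xbp1 it was 0.05 to 0.08 in 4T1, -0.50 to -0.38 in MR20 and 0.32 to 0.41 in DR500. The ATF4-CHOP arm stood at 0.29 to 0.37 in 4T1, -0.23 to -0.10 in MR20 and -0.25 to -0.13 in DR500. In these medians the arrays of MR20 and DR500 therefore overlap for the ATF4-CHOP arm and are apart for chaperones and sensors. Single genes of the arm still differed, with 2 of 7 higher in DR500 than in MR20 and 3 lower. These medians are descriptions and were not tested.

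**Figure D4:**
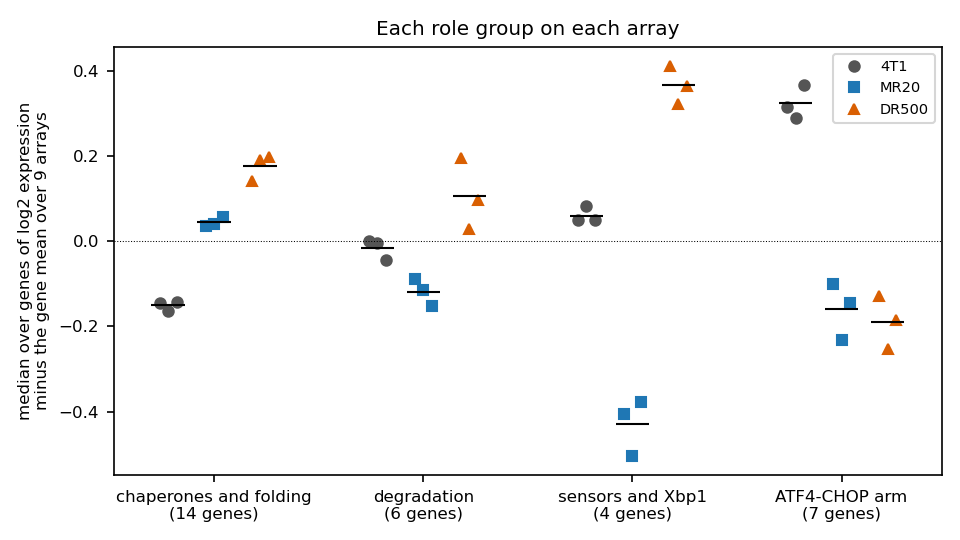
Median over the genes of a role of log2 expression minus the gene's mean over the 9 arrays (vertical axis) for 4 roles on each array, with a line at the mean of each line of cells. The ATF4-CHOP arm is at 0.29 to 0.37 on the 4T1 arrays and below 0 on the arrays of MR20 and DR500, and the sensors with Xbp1 are below 0 in MR20 only.

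Members with a promoter element were set beside other genes that hold it. Over all genes, 15.4% rose and 17.1% fell in MR20 and 20.2% and 21.3% in DR500. Of the 9 members with the ER stress element, 5 rose and 2 fell in MR20 and 4 rose and none fell in DR500. Of 12 other measured genes with this element, 4 rose and 3 fell in MR20 and 3 rose and 3 fell in DR500. Of the 5 members with the C/EBP-ATF element, 1 rose and 4 fell in MR20 and none rose and 3 fell in DR500. Among 560 other measured genes with it, 13.2% fell in MR20 and 13.6% in DR500, below the shares of all genes.

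Other genes of the pathway were taken from 6 lists, with 124 of 134 genes measured. The lists too were drawn up with earlier results of these data known. Beside their counts, 15.4% of all genes rose and 17.1% fell in MR20, and 20.2% and 21.3% in DR500. In DR500 compared with MR20, 21.2% of all genes were higher and 20.6% lower. Larger shares were called among the genes left by the filter on dim genes. The 28 measured further targets of ATF4 moved as most of the arm did: 1 rose and 23 fell in MR20, and 5 rose and 19 fell in DR500, with medians of -0.65 and -0.41. The largest falls were in enzymes of amino acid synthesis. Gpt2, which makes alanine, measured 9.36, 9.38 and 9.42 in 4T1, 7.86, 7.79 and 7.48 in MR20 and 7.06, 7.30 and 7.27 in DR500, and fell by 1.68 and 2.18 (adjusted p = 1.16e-06 and 6.63e-08). Aldh18a1, the first enzyme of proline synthesis from glutamate, fell by 1.43 and 1.48. Psat1 of the serine pathway fell by 1.14 and 1.34, and its neighbour in the pathway, Psph, fell by 1.13 and 1.07. Nupr1, a stress-induced chromatin protein, fell by 0.80 and 1.26.

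Not all ATF4 targets were low in DR500, and 9 of the 28 were higher there than in MR20, with 5 lower. The amino acid transporters Slc6a9, Slc1a4 and Slc7a11 and the transcription factor Cebpb were higher in DR500 than in MR20 by 1.40, 1.35, 1.22 and 1.26. Slc6a9, a glycine carrier, measured 10.86, 10.85 and 10.89 in 4T1, 10.15, 10.06 and 9.93 in MR20 and 11.50, 11.37 and 11.47 in DR500. Slc7a11, which imports cystine, rose in DR500 by 0.77 and fell in MR20 by 0.45. Slc1a4, Slc6a9 and Cebpb rose in DR500 relative to 4T1 by 0.68, 0.58 and 1.15. The fifth of the listed targets that rose there, and the only one that rose in MR20, was the amino acid transporter Slc38a2, by 0.18 in each line (a gene singled out after its values were seen). In MR20, 0 of the targets rose without 4T1 replicate 2 or 3, any MR20 array or DR500 replicate 3, or with adjustment over all probe sets.

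The aminoacyl-tRNA synthetases and the tRNA exporter Xpot, also known ATF4 targets, fell in most cases. Of 12 measured, 10 fell in MR20 and 10 in DR500, with none and 1 risen and medians of -0.42 and -0.52. Xpot fell by 0.48 and 1.14, Lars (leucine) by 0.47 and 1.08, and Nars (asparagine) by 0.47 and 0.75. Mars1 (methionine) fell by 0.37 and 0.90, and Sars (serine) by 0.62 and 0.43. Yars (tyrosine) fell by 0.42 in MR20, did not pass in DR500 (0.04), and was higher in DR500 than in MR20 by 0.46. Wars (tryptophan), a gene also known to be induced by interferon, singled out after its values were seen, rose by 0.58 in DR500 (adjusted p = 2.83e-05). In MR20 its difference of 0.17 did not pass (adjusted p = 0.0644). A part of interferon in these values was not tested.

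Further ER folding and redox genes were 2 up and 8 down of 20 in MR20 and 8 up and 5 down in DR500, and 10 of them were higher in DR500 than in MR20, with only Cnpy2 lower (log2 difference -0.61). Ero1b and Txndc5 rose in MR20, by 0.49 and 0.20. Fkbp14, a proline isomerase that assists collagen folding, had the largest rise of this list in DR500. It measured 6.99, 6.71 and 6.93 in 4T1, 6.92, 6.47 and 6.45 in MR20 and 8.58, 8.77 and 8.86 in DR500, a rise of 1.86 (SE 0.13, 3.63-fold, adjusted p = 1.53e-06). The oxidase Ero1a, which reoxidizes the disulfide isomerases, fell by 0.72 in MR20 and did not pass in DR500 (-0.08), while Ero1b and Txndc5 rose in DR500 by 0.54 and 0.60. The thiol oxidase Qsox1 fell by 0.53 in MR20 and rose by 0.43 in DR500. Fkbp2, another proline isomerase, fell in both lines, by 0.58 and 0.43. Erp29, a folding factor related to the isomerases, fell in both by 0.66 and 0.70, unlike Pdia3, Pdia4 and Pdia6.

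Of 17 further degradation genes, 8 rose and 5 fell in MR20 and 11 rose and 3 fell in DR500, the last being Selenok, Ubxn4 and Ube2g2. Nploc4 and Vcp, parts of the machine that pulls proteins out of the ER membrane, rose in both lines, by 0.67 and 0.50 in MR20 and by 0.34 and 0.22 in DR500. Ubqln1, a shuttle to the proteasome, rose by 0.51 in MR20 and did not pass in DR500 (0.02). Selenok, a membrane selenoprotein of the ER, fell by 0.64 in MR20 and 0.29 in DR500. Os9, a lectin, had rises of 0.47 (MR20) and 0.59 (DR500). Edem2, a relative of Edem1, rose by 0.44 and 0.42. Edem3 rose in DR500 by 0.51 and did not pass in MR20 (-0.08). The ubiquitin ligase Stub1 fell by 0.33 in MR20 and rose by 0.65 in DR500. Between the lines, Stub1, Rnf5 and Erlec1 were higher in DR500 by 0.99, 0.89 and 0.80.

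Of 27 translocon, signal peptidase and export genes, 2 rose (Sec13 and Surf4), 15 fell and 10 did not pass in MR20, with a median of -0.18. Over the alternatives 0 to 4 rose and 11 to 16 fell, with 0 rising without 4T1 replicate 2 and 1 rising without 4T1 replicate 1 or 3 or any MR20 array. In DR500, 11 rose and 10 fell, or 13 and 6 with centred arrays and 13 and 7 with a repeated quantile normalization. Between the lines, 15 were higher in DR500 than in MR20 and 4 lower, the latter being 2 without MR20 replicate 3 or DR500 replicate 2. Kdelr3, a receptor that returns escaped ER proteins from the Golgi, had the largest difference between the selected lines of all listed genes. It measured 10.74, 10.72 and 10.82 in 4T1, 8.63, 8.51 and 8.59 in MR20 and 11.65, 11.72 and 11.68 in DR500. Kdelr3 fell by 2.18 in MR20 (adjusted p = 3.6e-09) and rose by 0.93 in DR500 (adjusted p = 6.25e-07), an 8.62-fold difference between the lines. This is the order of lines seen for Xbp1, Ern1, Atf6 and Dnajc3.

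Within the same list, Sec11c, a catalytic subunit of the signal peptidase, fell in both lines, by 0.68 in MR20 and 2.10 in DR500 (adjusted p = 3.82e-05 and 5.94e-09). It measured 10.23, 10.31 and 10.44 in 4T1, 9.61, 9.64 and 9.67 in MR20 and 8.15, 8.30 and 8.21 in DR500. Of the same enzyme, Spcs3 fell by 0.71 in MR20 and 0.72 in DR500, and Spcs1 by 0.65 and 0.21. Ssr4, a translocon-associated subunit, fell by 0.34 in MR20 and 0.79 in DR500. Sec24d, a coat protein of the vesicles that leave the ER, rose by 1.16 in DR500 and fell by 0.16 in MR20 (adjusted p = 0.0459). Mcfd2, a cargo receptor subunit, fell by 0.62 in MR20 and rose by 0.49 in DR500.

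Of 20 other regulators, 5 rose and 4 fell in MR20 and 11 rose and 2 fell (Ppp1r15b and Eif2ak4) in DR500. Over all genes, 15.4% rose and 17.1% fell in MR20 and 20.2% and 21.3% in DR500, with larger shares after the filter on dim genes. The counts in MR20 are therefore no result about this list. Casp12, a caspase located at the ER, rose in both lines. It measured 8.74, 8.78 and 8.93 in 4T1, 9.62, 9.60 and 9.65 in MR20 and 10.24, 10.41 and 10.49 in DR500, with differences of 0.80 and 1.56 (adjusted p = 2.63e-05 and 9.78e-08). Eif2ak2, the RNA-activated eIF2-alpha kinase and an interferon-induced gene, rose by 1.06 in MR20 and by 0.37 in DR500 (adjusted p = 0.014), and DR500 lay below MR20 (log2 difference -0.69). Mbtps1, the protease that cleaves ATF6, fell by 0.55 in MR20 and did not pass in DR500 (0.01). Traf2, an adaptor of IRE1, rose by 0.48 in MR20 and 0.28 in DR500.

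In DR500 the ATF6 relative Atf6b lay 0.88 above MR20 and the ER membrane protein Wfs1 0.74. Relative to 4T1, the pro-apoptotic Bcl2l11 rose by 0.64 in DR500 and 0.32 in MR20. Creb3l2, an ER-bound transcription factor, rose by 0.64 in DR500 and did not pass in MR20 (0.02). Ppp1r15b, the constitutive counterpart of Ppp1r15a, fell by 0.37 in MR20 and 0.71 in DR500, where Ppp1r15a rose.

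**Figure D5:**
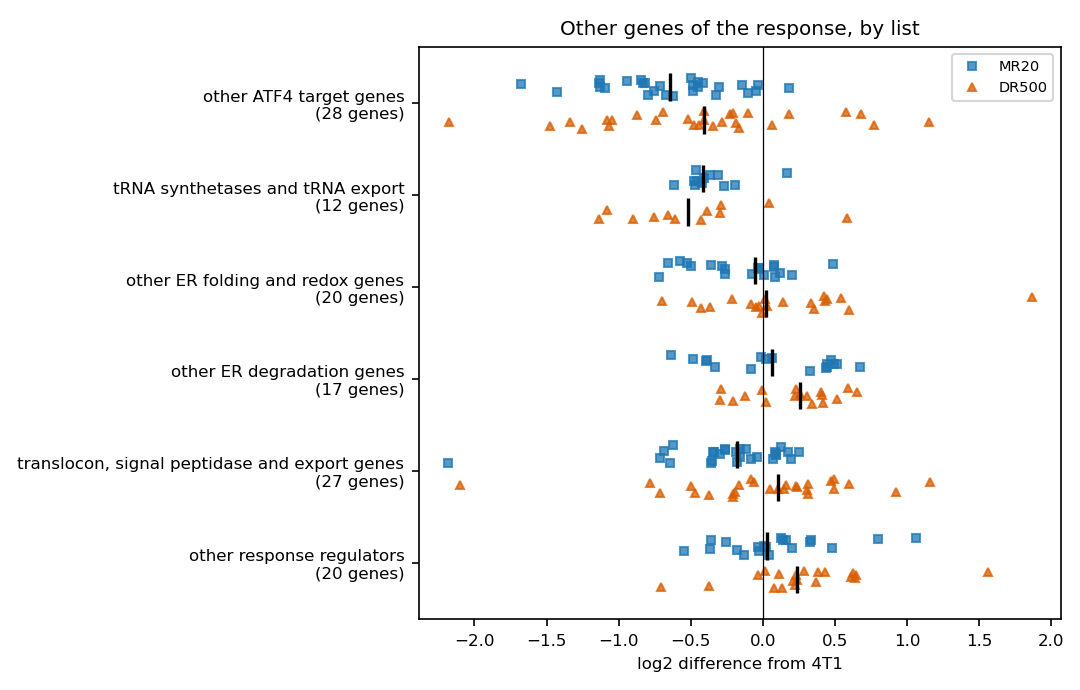
Log2 difference from 4T1 (horizontal axis) of each measured gene of 6 further lists in MR20 (squares) and DR500 (triangles), with a black bar at the median of the list. Both selected lines share the 4T1 arrays; the bars of the ATF4 targets and of the tRNA synthetases lie below 0 in both lines, at -0.65 and -0.41 and at -0.42 and -0.52.

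The median probe set lay between 6.24 and 6.38 on the 9 arrays, and arrays of the same line correlated at 0.995 to 0.999 across genes. DR500 replicate 1 deviated most from its line, with a root mean square of 0.147 against 0.0751 to 0.122 for the others. The 7 epithelial markers lay above the array median in every line, but their mean log2 level was 12.1 to 12.2 in 4T1, 12.1 in MR20 and 8.61 to 8.80 in DR500, where 6 of 7 fell (all but Krt8). Of 7 leukocyte markers, 2 rose in each selected line (Cd68 and Cd53). Cd68 was at 8.77 in 4T1, 10.00 in MR20 and 11.07 in DR500, and Cd53 at 4.83, 5.78 and 9.17. The leukocyte marker Ptprc was at 5.17, 5.18 and 5.24, below the array median. Of 7 fibroblast markers 1 fell in MR20 (Pdgfra) and 2 rose in DR500 (Pdgfra and Dcn), and none of 5 endothelial markers passed. The summed log2 level ranged over the 3 lines from 60.24 to 85.26 for the epithelial, 39.37 to 46.66 for the leukocyte, 40.89 to 45.89 for the fibroblast and 25.96 to 27.08 for the endothelial list. Their part in the differences of the members was not tested.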

How the data were processed

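Total RNA of 3 replicates each of 4T1, MR20 and DR500 was measured on 1-colour whole-transcript arrays. The sources conflict on whether these were biological replicates or wells. The authors deposited log2 expression values of 35556 probe sets, made from the scans by robust multi-array normalization (background correction, quantile normalization between arrays, summary of a probe set's probes). The submitters' notes name affy and limma, and versions are not given in the sources used here. The number of arrays limits the precision, and no read depth applies.

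Genes were assigned by the platform annotation of the probe sets. Of the probe sets, 21789 had 1 gene symbol (21698 matched by Entrez identifier), 1621 had several and 12146 had none, and only the first were used. Where a gene had more than 1 probe set (999 genes), the brightest on average represented it, which left 19938 genes. Limma 3.58.1 (R 4.3.3, with data.table, version 1.17.8) fitted a mean for each line to all 9 arrays, with 6 residual degrees of freedom and empirical Bayes variances. Differences between lines were tested two-sided and adjusted with Benjamini-Hochberg over all genes within each comparison. A gene rose or fell at an adjusted p under 0.05.

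The members and the 6 lists of other pathway genes were chosen with earlier results of these data known. All members are named, and of each list the 4 called genes that changed most in each comparison. Other names were chosen after their values were seen. Medians over members are descriptions. On simulated data with 19938 genes, of 50 genes changed 1.5-fold the fit recovered 37 in MR20 against 4T1, 36 in DR500 against 4T1 and 37 in DR500 against MR20. At 1.2-fold it recovered 13, 7 and 5. So few genes were changed there that the adjusted threshold was stricter than in the real data, where far more genes were called. These counts therefore do not give the share recovered in the real data.

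The settings varied were the lines in the fit (only those compared), a filter on dim genes, quantile normalization run again, centred arrays, the mean of a gene's probe sets, adjustment over all probe sets, a trended and robust variance step, the replicate number as a block, and leaving out each array. Promoter windows and their coordinates are those of RefSeq, GRCm38.p6.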

Additional observations from a re-analysis of the deposited data

Results flagged for a closer look

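The changes of both selected lines relative to 4T1 can be set against each other, since their difference equals DR500 minus MR20. By limma with Benjamini-Hochberg adjustment over all genes, 19 of the 32 members differed between the lines in this way. Of all genes, 21.2% were higher in DR500 and 20.6% lower. Of the 11288 genes left by a filter on dim genes, 3649 were higher and 4143 lower, so the number of members is no result by itself. A further 41 genes named from the lists also differed, but they were named in part for a large change in this same comparison. Their number is therefore no result. The log2 differences, DR500 minus MR20, were 1.24 for Dnajc3, 0.96 for Ern1, 0.94 for Xbp1, 0.68 for Atf6 and 0.62 for Ppp1r15a. Chac1, Derl1 and Sdf2l1 followed with 0.59, 0.59 and 0.56. Edem1, Hspa5, Dnajb9, Pdia6, Hyou1 and Creld2 had 0.46, 0.43, 0.27, 0.25, 0.23 and 0.18. Sel1l, Hsp90b1, Asns, Atf3 and Ddit3 had -0.31, -0.34, -0.34, -0.48 and -0.57. No group has over 3 arrays, so no search for single outlying arrays was made.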

How the results depend on the processing

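No called member changed direction under any alternative. Of the members past an adjusted p of 0.05 (limma with Benjamini-Hochberg adjustment), 24 of 25 in MR20 against 4T1 (not Atf3), 20 of 21 in DR500 against 4T1 (not Pdia4) and 16 of 19 in DR500 against MR20 (not Creld2, Dnajb9 and Hyou1) kept their call under every alternative. Of 1629 values of single members, 32 lost the call and 42 gained it. The number of members that rose ranged from 10 to 12, from 14 to 18 and from 11 to 18 in these comparisons, and the number that fell from 14 to 15, from 6 to 7 and from 5 to 6.

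Under the settings listed next, medians moved by more than the replicate spread, which was 0.0235 for the chaperone and degradation genes and 0.0578 for the ATF4-CHOP arm. The ranges for leaving out an array also hold smaller moves. For the chaperone and degradation genes in MR20 against 4T1, the median was 0.2223 with the dim filter, 0.2173 with a repeated quantile normalization and 0.2337 with centred arrays. In DR500 against 4T1 it was 0.3121 and 0.3319 under the latter settings, 0.2324 with the mean of a gene's probe sets, and 0.2465 to 0.2877 when an array was left out. In DR500 against MR20 it was 0.2274 with a repeated quantile normalization and 0.1584 to 0.2115 without an array. For the ATF4-CHOP arm, leaving out an array gave -0.5626 to -0.4672 in DR500 against 4T1 and -0.1475 to -0.0115 in DR500 against MR20, where the repeated normalization gave 0.0017. The cause was not tested.

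Replicate numbers do not pair the arrays: same-number arrays of different lines correlated, in their deviations from the line mean, between -0.309 and 0.327. With the replicate block, 11, 15 and 13 members rose and 14, 6 and 5 fell. The member lost with it was Dnajb9 in DR500 against MR20 (adjusted p = 0.0824). In the simulated data most changes of 1.2-fold were missed, but few genes changed there, so this does not carry over to the arrays. On the arrays, in MR20 against 4T1, Hsp90b1 passed at 1.19-fold and Dnajb9 did not at 1.18-fold.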
